A study of Mus musculus with 22 samples.

Results

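The liver is built mainly of hepatocytes, and 34 marker genes of its other structural cells were followed here: 11 of stellate cells and fibroblasts, 15 of endothelial cells and 8 of bile duct epithelium. The members were chosen by gene name among the 53392 gene rows measured in the series, and each of the 34 names had a row. RNA was sequenced from 22 liver samples of C57BL/6 females, 1 library each. Of these, 5 were germ-free and pregnant, 5 conventional and pregnant, 6 germ-free and not pregnant, and 6 conventional and not pregnant. The labels name no altered allele and no agent, and all mice had the same autoclaved chow. They do not say outright that each sample is a separate animal, so p-values measure the spread between these samples. Germ-free mice have no microorganisms in the gut or elsewhere, unlike conventional animals. Pregnant mice were taken at gestation day 15. Germ-free females were mated at 11 to 15 weeks of age over 72 h, with their gestation day assumed, whereas conventional females were mated overnight at 8 weeks. Age labels, whose unit is not stated, were 91 to 121 in germ-free and 70 to 77 in conventional mice. Age and dating of pregnancy therefore cannot be told apart from microbiota status.

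Stellate cells lie between hepatocytes and sinusoids, store retinoids when quiescent, and are the main source of fibrillar collagen when activated; portal fibroblasts express many of the same genes. Sinusoidal endothelial cells form a porous wall, clear macromolecules through scavenger receptors and, around the central vein, secrete Wnt ligands and an R-spondin that set the gene program of neighbouring hepatocytes. Cholangiocytes line the bile ducts with a keratin-rich epithelium, and osteopontin (Spp1) is a secreted glycoprotein that they, and also macrophages and other cells, produce. In whole liver, fewer cells of a type and less RNA per cell cannot be told apart.

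The 2 members called in pregnancy whose call held whichever single library was left out were Col3a1, a stellate and fibroblast collagen that was higher, and Spp1, a bile duct gene that was lower. The 250 bases upstream of their transcription starts are shown for that reason, from RefSeq on GRCm38.p6, 5′ to 3′ on the strand of the gene. Capitals mark matches to any of 4 motifs, searched on both strands. The CCAAT box was spelled CCAAT. The TATA box was spelled TATAAA. The GC box was spelled GGGCGG. The STAT motif was spelled TTCNNNGAA. The Col3a1 stretch is chr1:45311288-45311537 on the plus strand, and the Spp1 stretch is chr5:104434861-104435110 on the plus strand.
Col3a1: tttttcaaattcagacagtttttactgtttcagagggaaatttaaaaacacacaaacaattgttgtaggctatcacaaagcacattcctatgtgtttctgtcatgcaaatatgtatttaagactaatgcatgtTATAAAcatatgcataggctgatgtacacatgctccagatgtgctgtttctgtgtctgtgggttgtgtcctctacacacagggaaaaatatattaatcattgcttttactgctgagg
Spp1: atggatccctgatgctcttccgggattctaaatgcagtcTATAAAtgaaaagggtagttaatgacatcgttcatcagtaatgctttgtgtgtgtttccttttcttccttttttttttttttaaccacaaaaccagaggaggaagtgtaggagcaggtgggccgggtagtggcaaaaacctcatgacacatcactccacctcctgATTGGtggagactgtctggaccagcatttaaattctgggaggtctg
Col3a1 held 1 TATAAA that began 117 bases before the start. Spp1 held 1 TATAAA that began 211 bases before the start and 1 CCAAT on the minus strand, whose span began 46 bases before it. No motif match overlapped another in either stretch, and the letters of the GC box and STAT motif were not found in these windows. Among the 32851 RefSeq upstream stretches of 250 bases, the TATA box letters were found in 12.4%, those of the CCAAT box in 33.8%, of the GC box in 32.7% and of the STAT motif in 7.02%. Such matches describe the letters and are not evidence of binding. Of the 34 members, 23 had a promoter entry in the RefSeq table.

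Library totals ran from 18064491 to 30036912 estimated counts, and mitochondrially encoded genes took 5.9% to 31.99% of them. Of the 34 members, 32 passed the filter on low counts; Timp1, an inhibitor of matrix proteases, and Cftr, a chloride channel of bile ducts, did not. Their levels were at most 1.58 and 0.744 CPM (counts scaled to library size, the unit used throughout), and they were at 0 in 2 and 6 libraries. All 32 others had counts in every library, so markers of the 3 cell types were present throughout. In 3 groups, 1 library stood apart; this was seen in the data, and the genes that show it were chosen after their values were seen. Germ-free pregnant replicate 2 had 770 CPM of Dmbt1, a mucosal glycoprotein, against at most 13.6 CPM elsewhere, and 16.8 CPM of the mucin gene Muc3 against at most 0.0958 CPM. Conventional pregnant replicate 2 had 2049 CPM of the acute phase gene Saa1 against at most 62.2 CPM elsewhere. The library labelled germ-free non-pregnant replicate 2 had 5.30 CPM of the placental gene Tpbpa, against at most 0.717 CPM elsewhere. Its 297 CPM of the prolactin receptor gene Prlr lay within the range of its group, 148 to 308 CPM, and below all pregnant libraries, which began at 646 CPM. Several results that rest on these libraries are given with and without them.

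**Figure D1:**
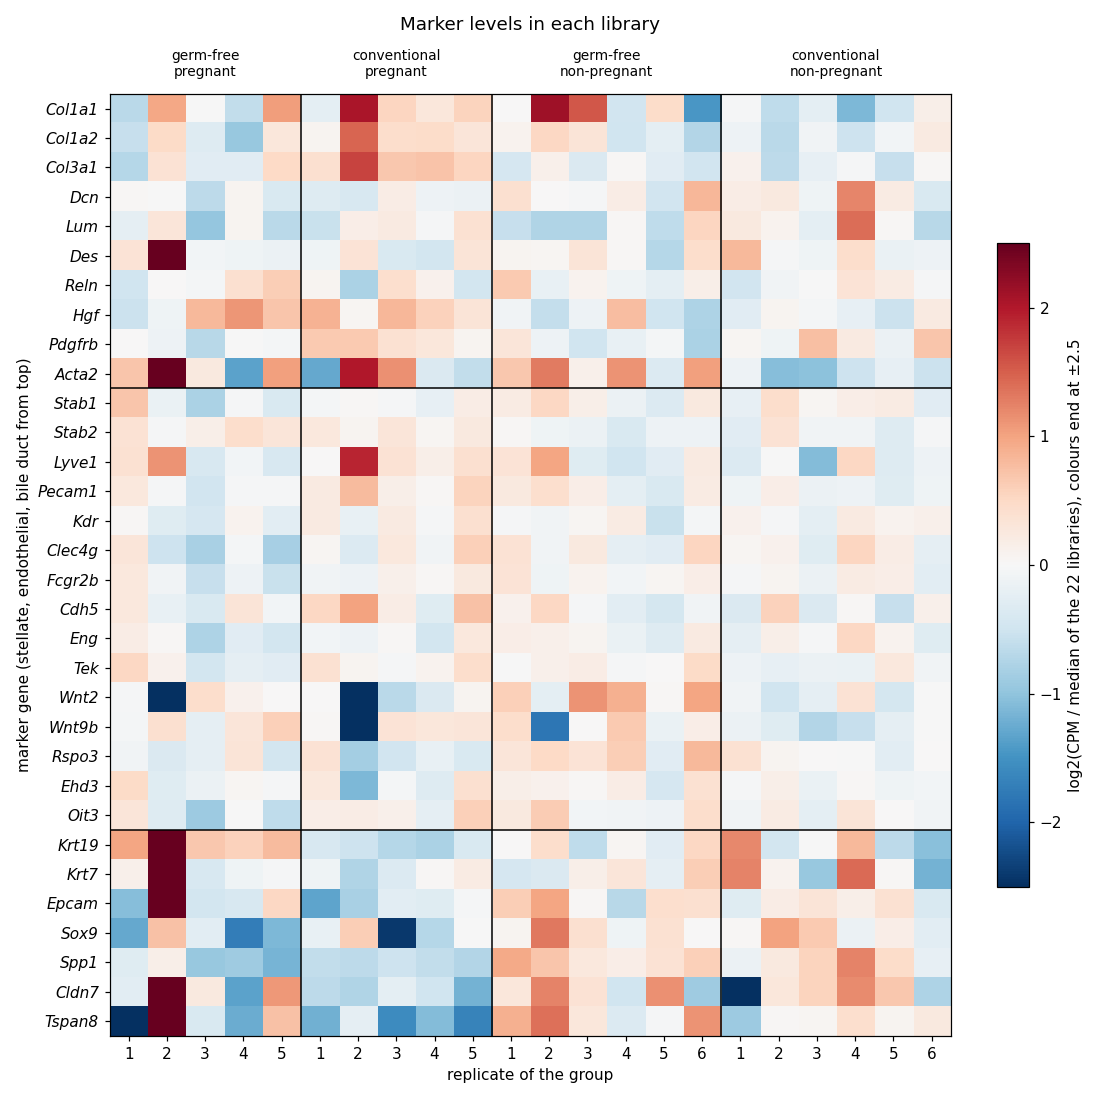
Level of each of the 32 tested markers (vertical axis) in each of the 22 libraries (horizontal axis, replicate number within its group), as log2 of CPM over the median of all libraries; red is above the median and blue below, and colours end at 2.5 on either side. Germ-free pregnant replicate 2 was the highest of the 22 libraries for 7 of the 32 members, and germ-free pregnant replicate 3 was the lowest for 8.

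Of 10 stellate and fibroblast markers tested, Col3a1 was the 1 that changed with pregnancy in conventional mice, where it averaged 60.9 ± 25.5 CPM in pregnant livers (SD, n = 5) and 29.0 ± 6.18 CPM in non-pregnant ones (SD, n = 6). None of the 10 was called in germ-free mice by edgeR's quasi-likelihood test (adjusted p under 0.05), where 2 had an unadjusted p under 0.05 and DESeq2 called 0. Over all 15928 genes, an unadjusted p under 0.05 with pregnancy was found for 3841 in germ-free and 3502 in conventional mice. Of all 15928 genes tested, pregnancy called 9.02% in conventional mice (5.49% higher and 3.52% lower) and 10.8% in germ-free mice (7.15% higher and 3.6% lower), so 1 call among 10 members lay near the background. The median log2 fold change of the 10 markers was 0.41 in conventional mice, with 6 positive, beside 0.04 over all genes, of which 8701 of 15928 were positive. In germ-free mice it was 0.05, with 7 positive, beside -0.02 over all genes, of which 7611 were positive. Without germ-free pregnant replicate 2 the germ-free median was -0.09, with 4 positive.

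Col3a1 (ENSMUSG00000026043.18, chromosome 1 at 45311538 to 45349706 of GRCm38, plus strand) encodes the chain of type III collagen, a fibrillar collagen of the liver scaffold. It stood at 43.6, 106, 52.7, 54.5 and 47.9 CPM in the 5 conventional pregnant libraries. In the 6 conventional non-pregnant libraries the lowest, median and highest were 21.1, 30.6 and 35.8 CPM. Each pregnant library lay above each non-pregnant one, and replicate 2, at 106 CPM, was far above the rest. Such a lack of overlap was found for 4.96% of all genes in this comparison, and for 2 of the 32 members. The log2 fold change was 1.07 ± 0.23 (SE; edgeR adjusted p = 0.00362), and it kept its call whichever of the 11 libraries was dropped. Without conventional pregnant replicate 2 it was 0.78 (edgeR adjusted p = 0.0173). In that library the summed level of 7 proliferation genes was 187 CPM, against 5.08 to 32.1 CPM in the others, and that of the Kupffer cell markers was 1574 CPM, against 230 to 744 CPM; their part in the Col3a1 level was not tested.

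In germ-free mice Col3a1 stood at 20.1, 42.5, 27.2, 27.1 and 46.9 CPM in pregnant livers, against 23.8, 26.5 and 35.9 CPM as the lowest, median and highest of the non-pregnant ones. These groups overlapped, and the log2 fold change of 0.20 ± 0.23 did not pass (edgeR adjusted p = 0.656). The difference between the pregnancy changes of germ-free and conventional mice was -0.87 ± 0.32 in log2 and was not called either (edgeR adjusted p = 0.863). A change in conventional mice and no call in germ-free mice is thus not shown to be a difference between them.

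The chains of type I collagen, the main fibrillar collagen of scar tissue, did not pass the test; they and the stellate markers that follow are given with values chosen after these were seen. Col1a2 stood at 16.0, 41.5, 20.6, 21.0 and 18.8 CPM in conventional pregnant livers, against 9.48 to 17.7 CPM in non-pregnant ones. Its log2 fold change was 0.81 ± 0.27 (edgeR adjusted p = 0.0616; DESeq2 called it at an adjusted p of 0.0432), or 0.50 without conventional pregnant replicate 2. Col1a1 reached 9.20 to 44.6 CPM in conventional pregnant livers and 4.95 to 12.0 CPM in non-pregnant ones, a log2 fold change of 1.20 ± 0.50 (edgeR adjusted p = 0.145), or 0.65 without conventional pregnant replicate 2. The highest Col1a1 level of the series, 47.1 CPM, was in germ-free non-pregnant replicate 2.

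**Figure D2:**
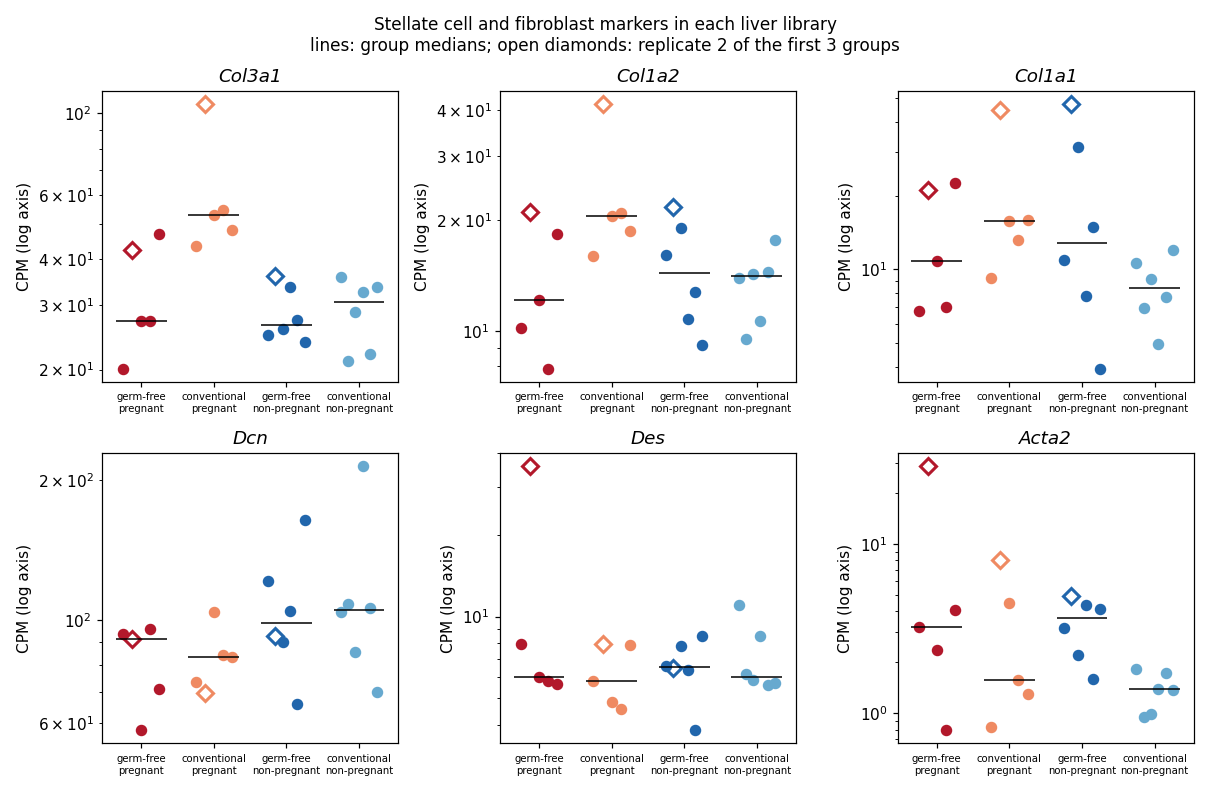
Levels of 6 stellate and fibroblast markers in each library, in CPM on a log axis, with a line at each group's median; open diamonds are replicate 2 of the germ-free pregnant, conventional pregnant and germ-free non-pregnant groups. Col3a1 was higher in all 5 conventional pregnant libraries than in any conventional non-pregnant one, and the open diamond of the germ-free pregnant group sits alone at the top for Des (35.8 CPM) and Acta2 (28.9 CPM).

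The small proteoglycans that coat collagen fibres were not called in conventional mice. Decorin (Dcn) had the highest level per length among the stellate markers, a median of 15.7 CPM per kilobase of exon over the 22 libraries, ahead of lumican (Lum) at 3.55 and Col3a1 at 3.37 CPM per kilobase. Dcn averaged 83.1 ± 13.4 CPM in conventional pregnant livers (SD, n = 5) and 115 ± 51.1 CPM in non-pregnant ones (SD, n = 6), a log2 fold change of -0.47 ± 0.24 that did not pass (edgeR adjusted p = 0.266). In germ-free mice it averaged 81.9 ± 16.6 CPM in pregnant and 107 ± 33.8 CPM in non-pregnant livers. Conventional non-pregnant replicate 4 held the highest level of both proteoglycans, 215 CPM of Dcn and 23.0 CPM of Lum. Without that library the conventional log2 fold changes were -0.19 for Dcn and 0.15 for Lum, and with it -0.47 and -0.22.

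In germ-free mice the pregnancy estimates of markers of the contractile and filament apparatus turned on 1 library. Desmin (Des), an intermediate filament of stellate and muscle cells, stood at 35.8 CPM in germ-free pregnant replicate 2 and at 3.82 to 11.0 CPM in the other 21 libraries. Smooth muscle actin (Acta2), a marker of activated stellate cells and of vessel walls, stood at 28.9 CPM there and at 0.794 to 8.01 CPM elsewhere. In the same library the summed level of 5 vascular smooth muscle genes was 105 CPM, against 5.73 to 11.1 CPM in the others, and Myh11, the smooth muscle myosin, reached 73.6 CPM against at most 4.63 CPM. Their part in the Des and Acta2 levels was not tested. Without this library the log2 fold changes of Des and Acta2 with pregnancy in germ-free mice were -0.05 and -0.37, against 0.89 and 1.21 with it. Neither gene was called in either fit. In conventional mice the Acta2 change was 1.22 ± 0.67 (edgeR adjusted p = 0.297), or 0.55 with the 3 libraries that stood apart left out. Between germ-free and conventional non-pregnant livers, the Acta2 change was 1.29 ± 0.64 (edgeR adjusted p = 0.837), or 1.15 without those 3.

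Hepatocyte growth factor (Hgf), through which stellate cells act on hepatocytes, had a similar estimate in both comparisons and was called in neither. It averaged 4.56 ± 1.05 CPM in conventional pregnant livers (SD, n = 5) and 2.86 ± 0.52 CPM in non-pregnant ones (SD, n = 6), a log2 fold change of 0.67 ± 0.28 (edgeR adjusted p = 0.15). In germ-free mice the averages were 4.41 ± 1.86 CPM in pregnant and 2.85 ± 1.28 CPM in non-pregnant livers, a log2 fold change of 0.64 ± 0.28 (edgeR adjusted p = 0.164). Reelin (Reln), a secreted glycoprotein of stellate cells, and Pdgfrb, the receptor of platelet-derived growth factor B, had log2 fold changes between -0.08 and 0.14 in the 2 comparisons.

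Among related genes, Lrat fell with pregnancy in both kinds of mice. The counts of this and the later wider lists stand beside 10.8% of all genes called in germ-free and 9.02% in conventional mice. Lrat, the enzyme that esterifies retinol in stellate cells, averaged 6.85 ± 2.23 CPM in conventional pregnant livers and 15.9 ± 3.44 CPM in non-pregnant ones, and fell by 1.21 ± 0.23 in log2 (edgeR adjusted p = 0.00151). In germ-free mice it fell by 1.30 ± 0.24 (edgeR adjusted p = 0.000641). It was the 1 lower gene of 23 other stellate and fibroblast genes tested in germ-free mice, with none higher. In conventional mice 2 of the 23 were higher and 2 lower: elastin (Eln) rose by 1.30 ± 0.28 and the matrix protein Sparc by 0.58 ± 0.16. Sparc lost its call without conventional pregnant replicate 2 or conventional non-pregnant replicate 3 (highest adjusted p = 0.0656).

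Of 16 other collagens and matrix genes, 4 rose in conventional mice and none fell, with a median log2 fold change of 0.48 and 15 of 16 positive. Nidogen (Nid1), which links laminin to collagen IV, rose by 1.74 ± 0.29 (edgeR adjusted p = 0.000363), and Col4a1, a chain of collagen IV, by 1.44 ± 0.28. With the 3 libraries that stood apart left out, these changes were 1.22 and 1.02. Col15a1, a collagen next to basement membranes, rose by 1.64 ± 0.36. All 4 kept their calls whichever library was dropped. Nid1 averaged 34.2 ± 23.2 CPM in conventional pregnant livers and 10.2 ± 2.62 CPM in non-pregnant ones. In germ-free mice 3 of the 16 rose, namely the laminin chain Lamc1 by 0.56 ± 0.16, Col18a1 by 0.76 ± 0.23 and Nid1 by 0.96 ± 0.29. None of these was called without germ-free pregnant replicate 2, Lamc1 also lost its call without germ-free pregnant replicate 5, and Nid1 and Col18a1 without several other single libraries (highest adjusted p of 0.119 for each of these 2).

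Of 19 genes of collagen processing and matrix turnover, 3 were higher and 3 lower with pregnancy in germ-free mice, and 3 rose and 1 fell in conventional mice. P4hb, a subunit of collagen prolyl hydroxylase that also folds proteins as a disulfide isomerase in hepatocytes, rose by 0.97 ± 0.15 in germ-free and 0.65 ± 0.15 in conventional mice. Another subunit, P4ha2, fell by 0.94 ± 0.23 in germ-free and 0.91 ± 0.23 in conventional mice. Mmp14, a membrane-bound matrix protease, rose by 1.63 ± 0.38 in germ-free mice, and by 1.39 ± 0.38 in conventional mice, where the call was lost without conventional pregnant replicate 2 or 5 or conventional non-pregnant replicate 4 or 5 (highest adjusted p = 0.128). Bmp1, which cleaves procollagen, rose by 0.84 ± 0.15 in germ-free mice. Of 18 genes of TGF-beta, PDGF and HGF signalling, 2 rose and 1 fell in germ-free mice, and 2 rose and 2 fell in conventional mice. The ligand gene Pdgfa rose by 2.13 ± 0.39 in germ-free and 2.33 ± 0.39 in conventional mice. Smad7, an inhibitor of TGF-beta signalling, fell by 0.89 ± 0.24 in both; in conventional mice it lost its call without non-pregnant replicate 5 (adjusted p = 0.0601). Hgfac, a protease that activates hepatocyte growth factor, rose by 0.90 ± 0.20 in germ-free and 0.66 ± 0.20 in conventional mice. Its conventional call held in 3 of the 11 fits that dropped a library in turn. Met, the receptor of hepatocyte growth factor, fell by 0.47 ± 0.13 in conventional mice, a call that was lost without pregnant replicate 2 or non-pregnant replicate 4 (highest adjusted p = 0.0874).

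Of 15 endothelial markers tested, 1, the scavenger receptor gene Stab2, was called with pregnancy in germ-free mice, and none was called in conventional mice by edgeR. Over all genes, 10.8% were called in germ-free and 9.02% in conventional mice. The median log2 fold change of the 15 was -0.16 with pregnancy in germ-free mice, with 4 positive, and 0.09 in conventional mice, with 10 positive. Their summed level ran from 242 to 421 CPM in germ-free pregnant, 301 to 438 CPM in conventional pregnant, 278 to 399 CPM in germ-free non-pregnant and 302 to 397 CPM in conventional non-pregnant livers. No member of this list had groups without overlap in either comparison with pregnancy; such a gap was found for 8.47% of all genes in germ-free mice. In conventional mice, 4 of the 15 had an unadjusted p under 0.05, beside 3502 of all 15928 genes, and DESeq2 called none.

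Stab2 (ENSMUSG00000035459.18, chromosome 10 at 86841198 to 87008025, minus strand) encodes a receptor by which sinusoidal endothelium takes up hyaluronan. It stood at 40.0, 30.1, 34.5, 41.8 and 38.0 CPM in germ-free pregnant livers. The germ-free non-pregnant livers had 23.9, 28.3 and 31.7 CPM as their lowest, median and highest. All pregnant libraries but replicate 2 lay above all non-pregnant ones. The log2 fold change was 0.39 ± 0.12 (edgeR adjusted p = 0.0353). The call was lost without germ-free pregnant replicate 1, 4 or 5 or germ-free non-pregnant replicate 3, 4, 5 or 6 (highest adjusted p = 0.105), although the change stayed between 0.34 and 0.46.

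In conventional mice Stab2 stood at 37.4, 32.6, 38.4, 31.8 and 36.8 CPM in pregnant livers, against 24.7, 29.1 and 39.6 CPM as the lowest, median and highest of the non-pregnant ones. The groups overlapped through non-pregnant replicate 2, and the log2 fold change of 0.25 ± 0.12 did not pass (edgeR adjusted p = 0.21). Its relative Stab1, another scavenger receptor, had log2 fold changes of -0.18 ± 0.20 in germ-free and -0.10 ± 0.20 in conventional mice. Lyve1, the hyaluronan receptor of sinusoids and lymphatics, stood at 17.9 CPM in conventional pregnant replicate 2 and at 2.27 to 10.5 CPM in the other 21 libraries.

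Another 9 endothelial markers did not pass in either comparison. Pecam1, an adhesion molecule of endothelial junctions, averaged 17.9 ± 4.02 CPM in conventional pregnant livers (SD, n = 5) and 12.9 ± 1.38 CPM in non-pregnant ones (SD, n = 6). Its log2 fold change was 0.47 ± 0.16 (edgeR adjusted p = 0.0638), or 0.35 without conventional pregnant replicate 2, and -0.14 ± 0.16 in germ-free mice. VE-cadherin (Cdh5), which holds endothelial cells together, had log2 fold changes of 0.02 ± 0.22 in germ-free and 0.53 ± 0.22 in conventional mice. The growth factor receptors Kdr (for VEGF) and Tek (for angiopoietins) and the TGF-beta co-receptor Eng lay between -0.25 and 0.27. Per kilobase of exon, the lectin gene Clec4g led the endothelial markers with a median of 17.6 CPM, followed by Eng with 13.9 CPM, and Wnt9b was the lowest with 0.252 CPM. Clec4g, the IgG receptor gene Fcgr2b and Oit3 had log2 fold changes of -0.43, -0.27 and -0.45 in germ-free mice, and of 0.04, 0.03 and 0.16 in conventional mice. Ehd3, of endocytic recycling, had -0.05 in both. In germ-free pregnant replicate 3, 6 of the 15 endothelial markers were at their lowest of all 22 libraries.

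**Figure D3:**
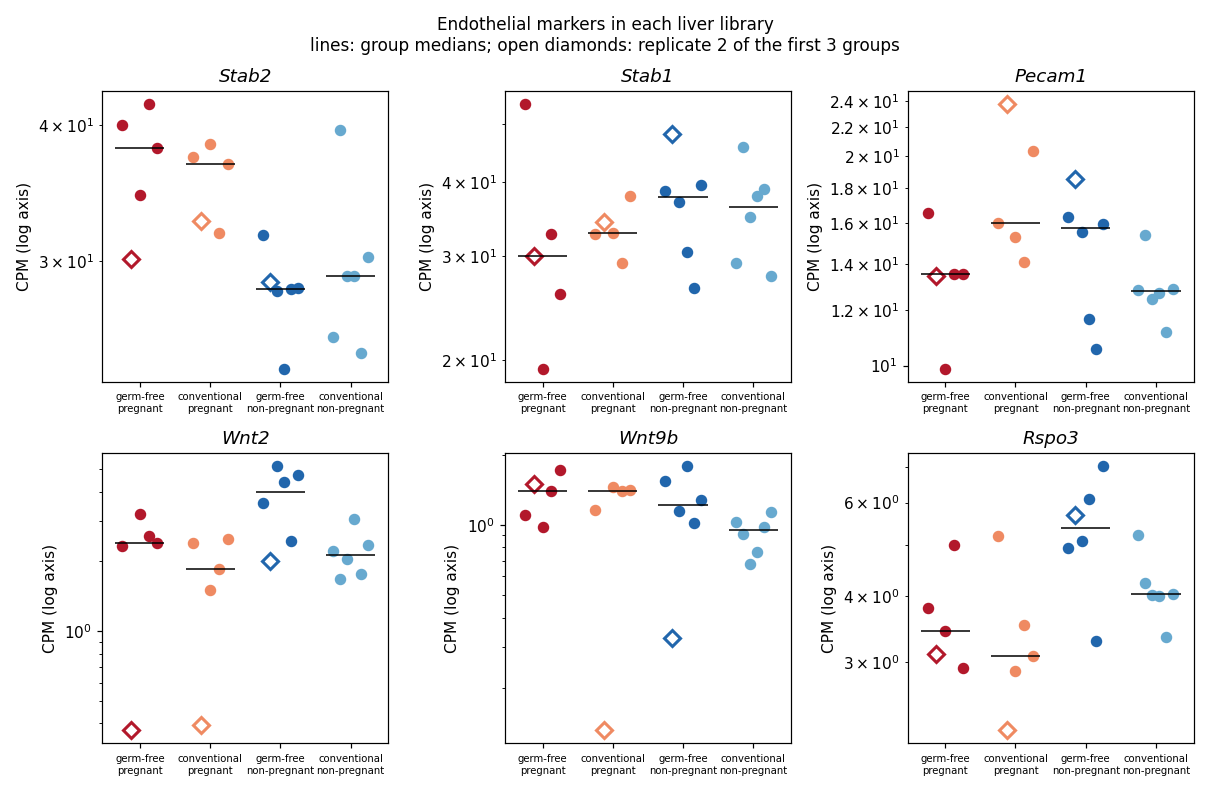
Levels of 6 endothelial markers in each library, in CPM on a log axis, with a line at each group's median; open diamonds are replicate 2 of the germ-free pregnant, conventional pregnant and germ-free non-pregnant groups. Stab2 varied from 23.9 to 41.8 CPM over all libraries, while open diamonds fall below their groups for Wnt2 (0.374 and 0.394 CPM) and Wnt9b (0.131 and 0.325 CPM).

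The 2 Wnt ligands and the R-spondin of central vein endothelium were low but measurable, and none was called. Wnt2 (ENSMUSG00000010797.6, chromosome 6 at 17988940 to 18030585, minus strand) stood at 2.32, 0.374, 3.21, 2.57 and 2.40 CPM in germ-free pregnant livers. In germ-free non-pregnant livers its lowest, median and highest were 2.00, 4.01 and 5.17 CPM. The groups overlapped, with a log2 fold change of -0.77 ± 0.40 (edgeR adjusted p = 0.25). In conventional mice it stood at 2.40, 0.394, 1.50, 1.85 and 2.51 CPM in pregnant livers, against 1.67, 2.13 and 3.05 CPM in non-pregnant ones (lowest, median and highest), a log2 fold change of -0.33 ± 0.40. With the 3 libraries that stood apart left out, the conventional change was -0.07. Replicate 2 of each pregnant group was the low value, from 6 and 9 counts.

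Wnt9b (ENSMUSG00000018486.2, chromosome 11 at 103727364 to 103749821, minus strand) stood at 1.10, 1.49, 0.976, 1.40 and 1.73 CPM in germ-free pregnant livers, against 0.325, 1.21 and 1.79 CPM as the lowest, median and highest of the non-pregnant ones. In conventional mice it stood at 1.16, 0.131, 1.45, 1.39 and 1.41 CPM in pregnant livers, against 0.682, 0.947 and 1.13 CPM in non-pregnant ones. Apart from conventional pregnant replicate 2, with 3 counts, all conventional pregnant libraries lay above all non-pregnant ones. The log2 fold changes were 0.18 ± 0.41 in germ-free and 0.27 ± 0.41 in conventional mice, or 0.56 without that library (adjusted p = 0.391), so no change was called.

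Rspo3 (ENSMUSG00000019880.10, chromosome 10 at 29452416 to 29535867, minus strand), which strengthens Wnt signals, stood at 3.79, 3.11, 3.44, 4.99 and 2.92 CPM in germ-free pregnant livers, against 3.29, 5.38 and 7.03 CPM as the lowest, median and highest of the non-pregnant ones. In conventional mice it stood at 5.18, 2.23, 2.89, 3.52 and 3.08 CPM in pregnant livers, against 3.34, 4.03 and 5.20 CPM in non-pregnant ones. Both comparisons overlapped. The log2 fold changes were -0.55 ± 0.21 in germ-free (edgeR adjusted p = 0.11) and -0.29 ± 0.21 in conventional mice (adjusted p = 0.485).

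In the same whole-liver libraries, 22 other genes of the Wnt and R-spondin pathway and of its hepatocyte targets were tested. With pregnancy, 2 were higher and 3 lower in germ-free mice, and 1 was higher and 8 lower in conventional mice, or 2 and 5 without conventional pregnant replicate 2. Lgr4, a receptor for R-spondins, rose by 1.43 ± 0.15 in germ-free and 1.08 ± 0.15 in conventional mice, and the target gene Lect2 fell by 1.15 ± 0.18 and 1.60 ± 0.18. Axin2, a Wnt target that dampens the pathway, fell by 0.96 ± 0.22 in germ-free and 0.72 ± 0.21 in conventional mice. Its conventional call held in 4 of the 11 fits that dropped a library in turn. The pericentral enzyme gene Oat fell by 1.55 ± 0.30 in conventional mice. The summed level of the 22 genes was 1723 CPM in conventional pregnant replicate 2, against 4232 to 5985 CPM in the other 4 libraries of its group. It was 4940 CPM in germ-free pregnant replicate 2, against 5804 to 7317 CPM in the other 4, and 5266 CPM in germ-free non-pregnant replicate 2, against 8063 to 10205 CPM in the other 5. Cyp2e1, 1 of the 22 genes, was a large part of this sum, averaging 4519 CPM in conventional non-pregnant and 2093 CPM in conventional pregnant livers. Conventional pregnant replicate 2 was the lowest of its group for Wnt2, Wnt9b and Rspo3. Germ-free non-pregnant replicate 2 was the lowest for Wnt2 and Wnt9b, but held 5.67 CPM of Rspo3. Germ-free pregnant replicate 2 was the lowest for Wnt2, but held 1.49 CPM of Wnt9b. Whether these levels are linked was not tested. Of 33 other endothelial genes, 1 rose in germ-free mice, the clotting factor carrier gene Vwf by 0.82 ± 0.23, and none was called in conventional mice. There DESeq2 called 0, and 1 of the 33 had an unadjusted p under 0.05, beside 3502 of all 15928 genes. Vwf lost its call without germ-free pregnant replicate 2 or 5 or germ-free non-pregnant replicate 1 or 3 (highest adjusted p = 0.107). Of 6 VEGF and angiopoietin ligands, Vegfb fell by 0.51 ± 0.14 in conventional mice, a call that was lost without pregnant replicate 1 or 4 or non-pregnant replicate 4 (highest adjusted p = 0.0569). In germ-free mice edgeR and DESeq2 called 0 of the 6, and 1 had an unadjusted p under 0.05, beside 3841 of all 15928 genes.

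Of 7 bile duct markers tested, Spp1 fell with pregnancy in both kinds of mice, and Krt19 rose in germ-free mice through 1 library. These were 2 calls of 7 in germ-free and 1 of 7 in conventional mice, beside 10.8% and 9.02% of all genes. The median log2 fold change of the 7 was 1.08 in germ-free mice, with 5 positive, and -0.61 without germ-free pregnant replicate 2, with 1 positive. The conventional median was -0.73, with 0 positive. Germ-free pregnant replicate 2 held the highest level of all 22 libraries for 5 of the 7 markers. The summed level of the bile duct markers was 156 CPM there and 25.2 to 35.5 CPM in the other 4 germ-free pregnant livers, against 47.2 to 76.6 CPM in germ-free non-pregnant ones. The sum in conventional mice was 29.0 to 30.7 CPM in pregnant and 36.4 to 95.2 CPM in non-pregnant livers. Spp1 made up most of this sum in every library except germ-free pregnant replicate 2, where it was 37.6 of the 156 CPM, so the sum largely repeats the values of Spp1.

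Spp1 (ENSMUSG00000029304.14, chromosome 5 at 104435118 to 104441050, plus strand), the osteopontin gene whose upstream stretch is printed above, stood at 27.5, 37.6, 17.7, 18.3 and 15.2 CPM in germ-free pregnant livers. In germ-free non-pregnant livers its lowest, median and highest were 38.2, 47.3 and 65.4 CPM. The groups did not overlap, although replicate 2 of the pregnant group came close. Such a lack of overlap was found for 8.47% of all genes in this comparison. Spp1 fell by 1.07 ± 0.24 in log2 (edgeR adjusted p = 0.0042), and the change lay between -1.31 and -0.97 over the 11 fits that dropped a library in turn, all of them called.

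In conventional mice Spp1 stood at 22.1, 21.6, 23.7, 22.2 and 20.4 CPM in pregnant livers, against 29.5, 43.3 and 80.4 CPM as the lowest, median and highest of the non-pregnant ones. The pregnant libraries were tightly grouped, the non-pregnant ones were spread, and the groups did not overlap, as for 4.96% of all genes. Spp1 fell by 1.07 ± 0.24 (edgeR adjusted p = 0.00567; -1.17 to -0.84 over 11 fits, all called). The difference between the 2 pregnancy changes was -0.01 ± 0.33 in log2 (edgeR adjusted p = 0.998).

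Spp1 was also the most abundant bile duct marker per length, with a median of 20.7 CPM per kilobase of exon, against 0.882 for Krt19, the next. Marker levels of other cell types were as follows. The summed level of the hepatocyte markers, most of which was the albumin gene Alb, was 129894 to 201809 CPM in germ-free pregnant and 55322 to 91286 CPM in germ-free non-pregnant livers. Among conventional mice it was 75318 to 244241 CPM in pregnant and 63432 to 92000 CPM in non-pregnant livers. Of 10 Kupffer cell markers, macrophages being another source of osteopontin, edgeR and DESeq2 called 0 in either comparison. Over all genes, edgeR called 10.8% in germ-free and 9.02% in conventional mice. An unadjusted p under 0.05 was found for 0 of the 10 in germ-free and 2 in conventional mice. Over all 15928 genes it was found for 3841 and 3502. The part of these cell types in the Spp1 change was not tested.

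**Figure D4:**
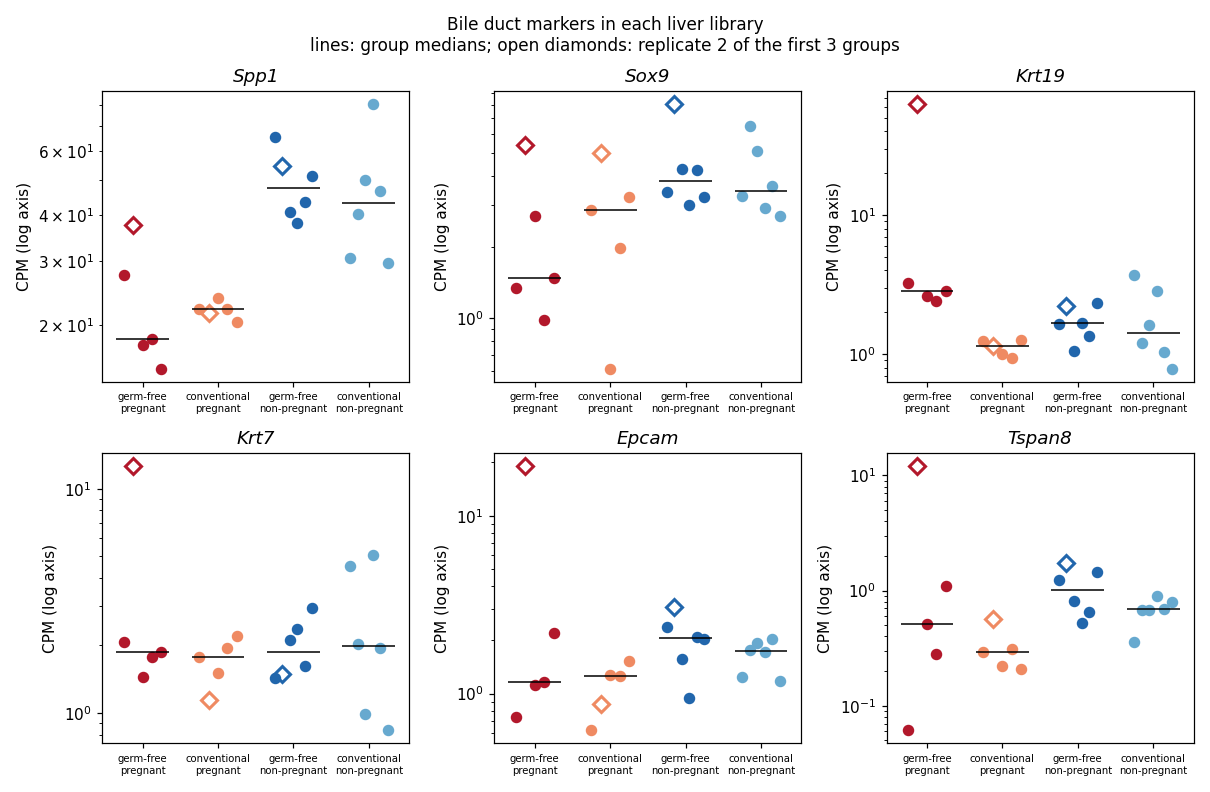
Levels of 6 bile duct markers in each library, in CPM on a log axis, with a line at each group's median; open diamonds are replicate 2 of the germ-free pregnant, conventional pregnant and germ-free non-pregnant groups. Spp1 was lower in all pregnant than in all non-pregnant libraries of its kind of mice, and the open diamond of the germ-free pregnant group lies far above its group for Krt19 (62.8 CPM), Krt7 (12.6 CPM), Epcam (19.1 CPM) and Tspan8 (12.1 CPM).

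Krt19 (ENSMUSG00000020911.14, chromosome 11 at 100140810 to 100148665, minus strand), a keratin of simple epithelia by which bile ducts are recognised in liver sections, stood at 3.24, 62.8, 2.60, 2.43 and 2.83 CPM in germ-free pregnant livers. The germ-free non-pregnant livers had 1.06, 1.66 and 2.34 CPM as their lowest, median and highest. All 5 pregnant libraries lay above all non-pregnant ones, but 4 of them only narrowly. The log2 fold change was 3.10 ± 0.70 (edgeR adjusted p = 0.00457), and without replicate 2 of the pregnant group it was 0.69 and not called (edgeR adjusted p = 0.242).

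In conventional mice Krt19 stood at 1.24, 1.14, 1.00, 0.940 and 1.25 CPM in pregnant livers, against 0.787, 1.41 and 3.74 CPM as the lowest, median and highest of the non-pregnant ones. The groups overlapped, and the log2 fold change of -0.73 ± 0.73 did not pass (edgeR adjusted p = 0.628). The difference between the pregnancy changes of germ-free and conventional mice was 3.83 ± 1.01 in log2, with an unadjusted p of 0.000937, and did not pass over all genes (edgeR adjusted p = 0.863). That estimate includes germ-free pregnant replicate 2, at 62.8 CPM.

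The same library set the estimates of the other epithelial markers, which are named after their values were seen. The keratin gene Krt7 stood at 12.6 CPM there and at most at 5.08 CPM elsewhere, and the adhesion molecule gene Epcam at 19.1 CPM against at most 3.07 CPM. The tetraspanin gene Tspan8 stood at 12.1 CPM against at most 1.72 CPM, and the tight junction gene Cldn7 at 6.16 CPM against at most 1.39 CPM. Their log2 fold changes with pregnancy in germ-free mice were 0.98 for Krt7, 1.26 for Epcam, 1.38 for Tspan8 and 1.08 for Cldn7, and none was called. Without that library they were -0.15, -0.61, -1.09 and -0.30, also uncalled. It also held 19.0 CPM of 7 summed exocrine pancreas genes, against 0.319 to 7.58 CPM elsewhere. Of that sum, 12.9 CPM was Ctrb1 and 4.73 CPM was Cela3b, and Cpa1 was also highest there. Cela2a, Cpb1, Pnlip and Prss2 were instead highest in germ-free pregnant replicate 1, and the last of these, like Pnlip, was at 0 in 21 libraries. Germ-free pregnant replicate 2 further held 40.3 CPM of the mucin gene Muc1 against at most 1.37 CPM, and 12.0 CPM of the signalling gene Shh against at most 0.631 CPM. The part of other tissues in these levels was not tested.

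Sox9, a transcription factor of duct cells and of liver progenitors, was called lower without that library and not with it. It stood at 1.35, 5.42, 2.70, 0.980 and 1.49 CPM in germ-free pregnant livers, against 3.00 to 8.04 CPM in non-pregnant ones. Its log2 fold change was -0.88 ± 0.44 (edgeR adjusted p = 0.217), and without germ-free pregnant replicate 2 it was -1.42 and called (edgeR adjusted p = 0.0391). With all 3 libraries that stood apart left out, it was -1.15 and not called (edgeR adjusted p = 0.0529). These include germ-free non-pregnant replicate 2, which held the 8.04 CPM. Its conventional estimate was -0.55 ± 0.43 (edgeR adjusted p = 0.504).

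Of 26 other bile duct genes, 6 rose and 1 fell with pregnancy in germ-free mice, or 2 and 2 without germ-free pregnant replicate 2. In conventional mice 1 rose and 2 fell. The keratin gene Krt23 fell in both. It averaged 0.991 ± 0.429 CPM in germ-free pregnant livers (SD, n = 5) and 10.3 ± 5.19 CPM in germ-free non-pregnant ones (SD, n = 6), and fell by 3.37 ± 0.38 in log2 (edgeR adjusted p = 1.99e-06). Krt23 in conventional mice averaged 0.445 ± 0.198 CPM in pregnant and 1.76 ± 0.485 CPM in non-pregnant livers, and fell by 1.99 ± 0.40 (edgeR adjusted p = 0.00188). Both changes were called whichever of the 11 libraries was dropped, and the groups did not overlap in either comparison.

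Among the other called genes of that list, Cd24a, a surface glycoprotein of epithelial and blood cells, rose by 2.51 ± 0.64 in germ-free mice, or 0.48 without germ-free pregnant replicate 2, when it was not called (edgeR adjusted p = 0.478). In conventional mice the membrane protein gene Tm4sf4 fell by 0.97 ± 0.25 and the transcription factor gene Onecut1, which hepatocytes share, rose by 1.36 ± 0.37. Of 7 receptor genes for osteopontin, 1 rose in each comparison: the integrin subunit gene Itgb5 by 0.82 ± 0.17 in germ-free and by 0.56 ± 0.17 in conventional mice. In conventional mice that call held in 2 of the 11 fits that dropped a library in turn (highest adjusted p = 0.0938).

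**Figure D5:**
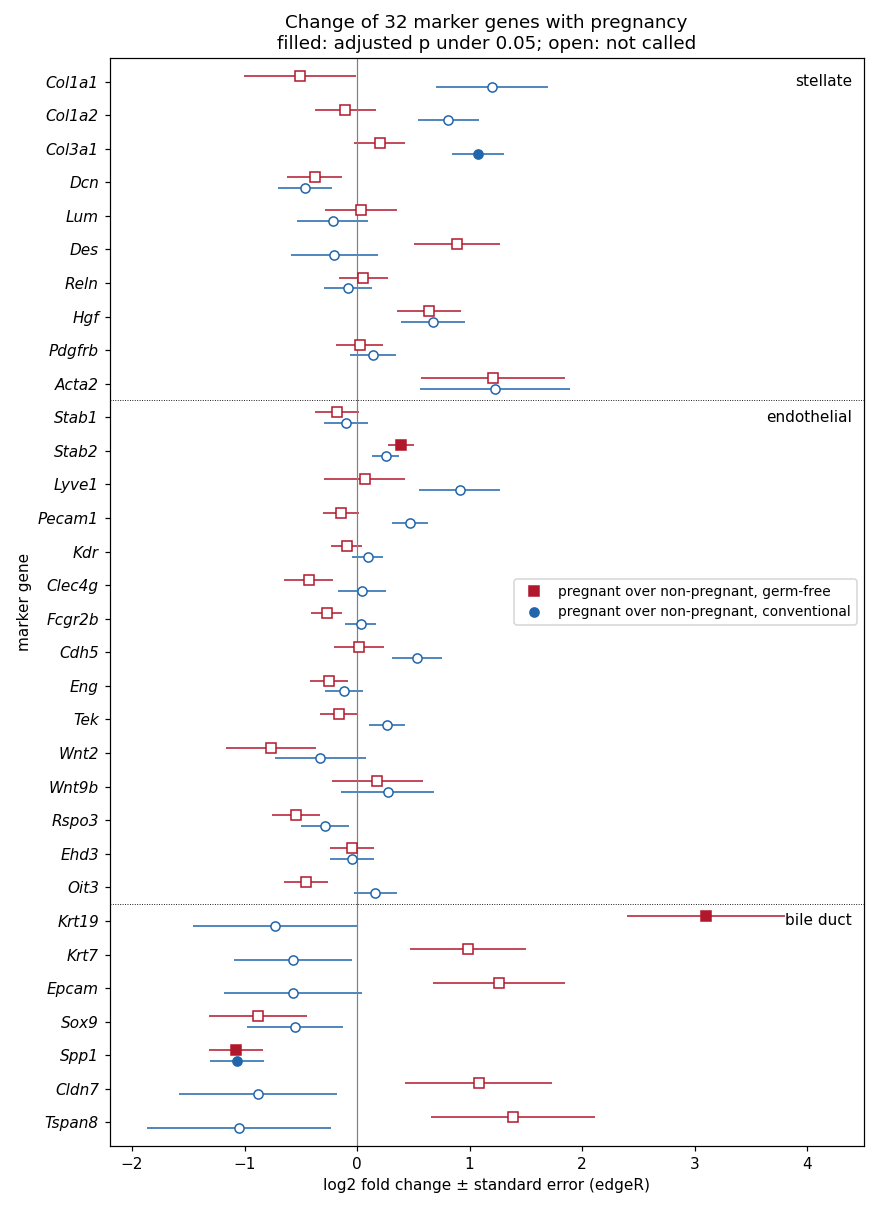
Log2 fold change with pregnancy of each of the 32 tested markers (vertical axis, by cell type), with bars of 1 SE; red squares are germ-free mice, blue circles are conventional mice, and filled symbols passed edgeR at an adjusted p under 0.05. Filled symbols are Col3a1 in conventional mice (1.07), Stab2 in germ-free mice (0.39), Krt19 in germ-free mice (3.10) and Spp1 in both (-1.07).

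Germ-free status had no called member in pregnant or in non-pregnant mice by edgeR. In pregnant mice 0 of 32 members were called, beside 0.132% of all genes (0.0816% higher and 0.0502% lower), 12 members and 1672 of the 15928 genes had an unadjusted p under 0.05, and DESeq2 called 1, Tspan8. Of those 12, 6 had estimates that rested largely on germ-free pregnant replicate 2: without it the log2 fold changes were 1.31 for Krt19, 0.80 for Cldn7, 0.61 for Tspan8, 0.25 for Epcam, 0.06 for Krt7 and 0.04 for Des, against 0.98 to 3.72 with it. In non-pregnant mice 0 of 32 were called, beside 0.157% of all genes (0.0879% higher and 0.0691% lower), 2 members and 957 genes had an unadjusted p under 0.05, and DESeq2 called 0. In pregnant mice 2 members had groups without overlap, beside 1.1% of all genes. The first was Pdgfrb, at 3.11 to 5.08 CPM in germ-free and 5.28 to 8.00 CPM in conventional livers, a log2 fold change of -0.58 ± 0.22 (edgeR adjusted p = 0.351). The second was Krt19, with 3.72 ± 0.78 (edgeR adjusted p = 0.0543), or 1.31 without germ-free pregnant replicate 2. No member's groups were apart in non-pregnant mice, beside 0.797% of all genes.

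By cell type, the median log2 fold changes with germ-free status in pregnant mice were -0.17 over the stellate, -0.23 over the endothelial and 2.12 over the bile duct markers, the last being 0.25 without germ-free pregnant replicate 2. In non-pregnant mice they were -0.01, 0.11 and 0.12, beside -0.03 in pregnant and -0.01 in non-pregnant mice over all genes. Col3a1 stood lower in germ-free than in conventional pregnant livers, by an estimate of -0.90 ± 0.24 that did not pass (edgeR adjusted p = 0.183). With the 3 libraries that stood apart left out, the estimate was -0.71. Wnt2 averaged 3.73 ± 1.28 CPM in germ-free non-pregnant livers and 2.19 ± 0.497 CPM in conventional non-pregnant ones (SD, n = 6 each), a log2 fold change of 0.77 ± 0.38 (edgeR adjusted p = 0.834). In the wider bile duct list Krt23 was the 1 gene called, higher by 2.54 ± 0.34 in germ-free non-pregnant livers (edgeR adjusted p = 0.0012), with groups that did not overlap.

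The pregnancy change was not shown to depend on germ-free status for any member. EdgeR called 0 of 32 members and 0 of all genes (0%) for that difference, 9 members and 903 genes had an unadjusted p under 0.05, and DESeq2 called 0 members. The lowest adjusted p of a member was 0.863.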

How the data were processed

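RNA of 22 liver samples was sequenced, and the authors deposited estimated counts per gene, which per the submitters' processing notes were made with Salmon 0.11.3, with edgeR 3.24.3 and GRCm38.p6 also named. The library kit named in the labels does not mark strand, so reads of overlapping and antisense genes cannot be told apart. The deposited estimated counts were rounded to whole numbers, which changed 0.00829% of all counts. Gene names came from GENCODE M21, which matched 97.72% of identifiers with their version. Genes were kept by edgeR's filter (minimum count 10, minimum total 15), scaled by TMM and tested with edgeR 4.0.16 (R 4.3.3) by its quasi-likelihood test, with 1 term per group over all 22 libraries, Benjamini-Hochberg adjustment over 15928 genes and a threshold of 0.05. CPM are these counts over the scaled library; SE come from the fold and the test statistic. The fit was tested on simulated data. DESeq2 1.42.0, no filter, RLE scaling, mitochondrial genes left out, a replicate block, 2-group fits, single libraries left out and, chosen after seeing the data, 3 libraries left out were tried.

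Members called in at least 1 comparison and the Wnt and R-spondin genes are given in every library, or by lowest, median and highest. Wider lists are given by counts and at most 3 called genes for each list and comparison. P4ha2, Hgfac and Axin2 are also given where they were called in the other comparison, and Cyp2e1 for its part in a summed level. The result of 1 gene is not reported here. Members and lists were chosen with earlier results of these data known. Each group serves in 2 comparisons, so the comparisons share samples. No 2 libraries of a group agreed within sampling noise. Library totals, which set the precision, were 18064491 to 30036912 counts.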

Additional observations from a re-analysis of the deposited data

Results flagged for a closer look

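Within groups of 5 or 6 libraries, 14 of the 128 combinations of member and group held a library far from the others by Dixon's gap test on log2 CPM; chance gives about 1 in 20. Conventional pregnant replicate 2 accounted for 4, being the highest of its group for Col3a1 (106 CPM), Col1a2 (41.5 CPM) and Lyve1 (17.9 CPM) and the lowest for Wnt9b (0.131 CPM). Germ-free pregnant replicate 2 accounted for 4, being the highest of its group for Krt19 (62.8 CPM), Krt7 (12.6 CPM) and Des (35.8 CPM) and the lowest for Wnt2 (0.374 CPM). Germ-free non-pregnant replicate 2 was the highest of its group for Sox9 (8.04 CPM) and the lowest for Wnt9b (0.325 CPM). The other 4 were single values: Des was low in germ-free non-pregnant replicate 5 (3.82 CPM), Pdgfrb low in germ-free pregnant replicate 3 (3.11 CPM), Tek high in conventional non-pregnant replicate 5 (7.88 CPM) and Tspan8 low in conventional non-pregnant replicate 1 (0.356 CPM). What sets these libraries apart was not tested.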

How the results depend on the processing

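Col3a1 in conventional mice and Spp1 in both kinds of mice kept their direction and their call under every alternative run. The 3 members called with pregnancy in germ-free mice became 2 without a filter, with DESeq2, without mitochondrial genes and without the 3 libraries that stood apart, and 2 to 4 when single libraries were left out. The 2 called in conventional mice became 3 with DESeq2, and 2 to 3 when single libraries were left out. For germ-free status in pregnant mice the count of 0 became 1 without a filter (Krt19, 3.69, adjusted p = 0.0106) and 1 with DESeq2 (Tspan8, 3.13, adjusted p = 0.015), and 0 to 1 when single libraries were left out; the cause was not tested. The other 2 counts, for germ-free status without pregnancy and for the difference between pregnancy changes, were 0 under every alternative run. Stab2 in germ-free mice lost its call without a filter (adjusted p = 0.187) and without mitochondrial genes (adjusted p = 0.0548).

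Equal replicate numbers did not generally pair the libraries: correlations of same-numbered deviations ran from -0.26 to 0.31 over 21 pairs, and in 4 of them a library correlated best with its own number. These were replicate 5 (0.14) and replicate 2 (0.13) for pregnancy in germ-free mice, and replicate 2 for pregnancy in conventional mice (0.16). The last was replicate 2 for germ-free status in non-pregnant mice, at 0.31. What lies behind the replicate 2 values was not tested. With the number as a replicate block, 2 members were called in germ-free and 2 in conventional mice; Krt19 (2.05, adjusted p = 0.0767) and Stab2 (0.40, adjusted p = 0.0695) were not called and Sox9 (-1.08, adjusted p = 0.041) was.

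Of 4595 combinations of member, comparison and alternative, 4567 stayed on their side of the threshold, 13 lost and 15 gained a call, and 0 reversed a call. DESeq2 gave no adjusted p in 10 others, Krt19 in germ-free mice among them. Low counts limit Wnt9b, Wnt2, Cldn7 and Tspan8, and Timp1 and Cftr could not be tested.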

Other observations

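Markers of other cells in the same libraries are given as values. Their counts of called genes stand beside 10.8% of all genes called in germ-free mice (7.15% higher and 3.6% lower). In conventional mice the share was 9.02% (5.49% higher and 3.52% lower). All 7 erythroid genes tested were called higher with pregnancy in germ-free mice, and 2 of 7 in conventional mice. In conventional mice all 7 had a positive log2 fold change and an unadjusted p under 0.05, a p found for 3502 of all 15928 genes. Alas2, the first enzyme of heme synthesis in red cell precursors, averaged 63.4 ± 17.9 CPM in germ-free pregnant livers (SD, n = 5) and 17.9 ± 6.16 CPM in non-pregnant ones (SD, n = 6), a log2 fold change of 1.83 (edgeR adjusted p = 0.000112). Alas2 in conventional mice averaged 34.5 ± 16.0 CPM in pregnant and 12.7 ± 2.74 CPM in non-pregnant livers, a log2 fold change of 1.45 (edgeR adjusted p = 0.00177). Of 7 hepatocyte markers 4 rose and 1 fell in germ-free mice, or 2 and 1 without germ-free pregnant replicate 2, and 1 rose and 1 fell in conventional mice. The transthyretin gene Ttr fell by 1.69 in germ-free mice and fell by 1.46 in conventional mice, while the albumin gene Alb rose by 1.13 and 1.25. Of 7 proliferation genes 4 rose with pregnancy in conventional mice, and 0 without conventional pregnant replicate 2.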
